A study of Mus musculus with 8 samples.

Results

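The interleukin-6 (IL-6) family is described here through 10 genes, found by their symbols among the 27998 genes of the sham and IR matrices, and all 10 had UMIs in both. They comprise the ligands Il6, Osm, Lif and Il11, the receptors Osmr, Lifr, Il6st and Il6ra, the feedback inhibitor Socs3 and the transcription factor Stat3. Left ventricles of male C57BL/6 mice aged 10 to 12 weeks were profiled by droplet single-cell RNA sequencing, which tags each captured transcript with a unique molecular identifier (UMI). IR mice had a coronary artery tied for 30 min and then released, whereas sham mice had the operation without occlusion. Per the labels, tissue of 3 hearts was taken 6 h after either operation and dissociated with enzymes. The labels list 4 samples per condition, titled 0 h and 6 h, and the 0 h titles were read as sham because the study names only sham and IR groups. The labels name no transgene, Cre or drug for these libraries.

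The barcodes of a condition were deposited in a single matrix and do not name their sample, so there is 1 library per condition, no replicate and no test of sham against IR. The sham library held 11620 barcodes and 58653308 UMIs and the IR library 8539 barcodes and 75033226 UMIs. Of these, 11377 and 8260 barcodes were kept, with medians of 4649 and 6636 UMIs, and 29 kept barcodes occurred in both libraries. Levels are the UMIs of a gene per 1000000 UMIs of a cell class (CPM). All intervals are exact 95% intervals that cover counting error only, not differences between hearts. Levels of different genes are not ranked against each other.

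IL-6 family cytokines signal by bringing the shared receptor chain gp130, the product of Il6st, together with a partner chain. IL-6 first binds its own receptor IL-6Rα, encoded by Il6ra, on the cell surface or in a shed, soluble form. IL-11 uses a related receptor encoded by Il11ra1, leukemia inhibitory factor (Lif) uses LIFR, and mouse oncostatin M (Osm) mainly uses OSMR. The paired chains activate Janus kinases, which phosphorylate STAT3, and STAT3 switches on genes that include Socs3, whose product blocks further gp130 signaling. In the heart this family is known for its roles in the acute injury response, in fibroblast and cardiomyocyte stress and in leukocyte recruitment.

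In the GRCm38 annotation each member is a protein-coding gene with 1 locus. Osm (chr11:4236420-4241026) and Lif (chr11:4257557-4272514) lie side by side on the plus strand with 16.5 kb between them. Osmr (chr15:6813577-6874969, minus strand) and Lifr (chr15:7090614-7197489, plus strand) are neighbors 216 kb apart. Il6 lies at chr5:30013114-30019981, Il11 at chr7:4772373-4782859, Il6st at chr13:112464070-112510086, Il6ra at chr3:89864059-89913196, Socs3 at chr11:117966079-117970047 and Stat3 at chr11:100885098-100939540.

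Promoters are shown because several members had higher levels in IR in the same cells, and only for members with a match to a searched motif. RefSeq (GRCm38.p6) gave 11 promoters for 9 of the 10 members, read over the 250 bases before the start on both strands. The searched motifs were a STAT element (TTCNNNGAA), an AP-1 element (TGANTCA) and a cyclic-AMP response element (TGACGTCA), none of which overlapped another. An AP-1 match was found in 3 of the 11 promoters, those of Il6, Lif and the downstream start of Il11, against 6.75% of all 32851 promoters. A STAT match was found in 1 of the 11, that of Socs3, against 7.02% of all. A cyclic-AMP element, held by 1.55% of all, was found in 0 of the 11. The Il6 promoter is given whole and the others as the match with 10 flanking bases, 5′ to 3′ on the strand of the gene, with the motif in capitals.
Il6, chr5:30012864-30013113, plus strand: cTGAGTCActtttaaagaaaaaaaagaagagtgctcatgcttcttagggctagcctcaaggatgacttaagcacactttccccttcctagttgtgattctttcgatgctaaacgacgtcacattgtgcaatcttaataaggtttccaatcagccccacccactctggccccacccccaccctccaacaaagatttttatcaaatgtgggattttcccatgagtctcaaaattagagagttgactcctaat
Lif, chr11:4257330-4257356, plus strand: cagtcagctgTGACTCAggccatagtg
Il11, chr7:4778223-4778249, minus strand: ggagggagggTGAGTCAggatgtgtca
Socs3, chr11:117969502-117969530, minus strand: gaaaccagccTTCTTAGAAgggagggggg
A match describes these letters only and is not evidence of a bound site.

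Cells were clustered without the members and the pathway genes, so that neither took part in defining a cluster, and clusters were named with the suffix -like from marker genes. Of 28 clusters, 5 stayed unnamed. 11 classes held at least 50 cells in each library and were compared. Cell numbers in sham and IR were 3496 and 1713 for fibroblast-like, 837 and 204 for mural-like, 423 and 135 for endothelial-like cells, which are not leukocytes. The leukocytes were resident-macrophage-like (3364 and 1070), monocyte-like (56 and 1260), nonclassical-monocyte-like (420 and 116), neutrophil-like (249 and 2452), dendritic-cell-like (90 and 84), B-cell-like (1141 and 750), T-cell-like (414 and 284) and NK-cell-like cells (291 and 86). Markers were checked in each class, with Csf3r at 1762 and 1040 CPM in sham and IR neutrophil-like cells. In fibroblast-like cells Pdgfra was at 300.5 and 361 CPM, whereas Col1a1 was lower in IR, at 1057 and 517.6 CPM. The nonclassical-monocyte-like cluster also had the classical monocyte gene Ly6c2 among its leading genes, at 5393 CPM in sham and 25.03 CPM in IR, whereas monocyte-like cells held 1790 and 427 CPM. Its nonclassical marker Treml4 was at 198 and 272.5 CPM, against 20.3 and 13.4 CPM in monocyte-like cells. In sham, that class therefore goes against its name by Ly6c2, and the name is kept for the cluster as a whole. Sham and IR cells of both monocyte classes thus differ in Ly6c2, and each difference between the libraries in these classes carries that limit. The monocyte-like class was named from a list of markers of monocytes and recruited macrophages, and its main cluster was led by Chil3, F10 and Ccr2 together with Spp1 and Msr1. Several classes were held by different clusters in the 2 libraries. Sham fibroblast-like cells were mostly cluster 0 (3481 cells), whereas IR fibroblast-like cells were cluster 7 (1060 cells, led by Cxcl5, Ptx3 and Timp1), cluster 11 (585 cells, led by Serpina3n) and cluster 0 (68 cells). The fibroblast marker score of cluster 7 was 1.315, against 2.47 in cluster 0 and 2.36 in cluster 11. Sham neutrophil-like cells were clusters 16 (177 cells) and 6 (72 cells), and IR neutrophil-like cells were clusters 3 (1391 cells) and 6 (1055 cells). Resident-macrophage-like cells were clusters 1, 4 and 8 with 1837, 1279 and 112 sham cells and 357, 10 and 683 IR cells, beside a cycling cluster. A difference between libraries within a class therefore includes a difference in the clusters that make it up. Doublets were not removed, and the effect of removing them is given with the other alternatives.

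Osm, which encodes oncostatin M, was chiefly a transcript of neutrophil-like and monocyte-like cells in the IR library. Its level in neutrophil-like cells was 352 CPM (303 to 407) in sham and 1158 CPM (1139 to 1177) in IR. In monocyte-like cells it was 142 CPM (109 to 182) in sham, from 63 UMIs in 56 cells, and 965 CPM (950 to 980) in IR. These were the highest levels of Osm among the 11 classes in both libraries, and in IR the intervals of these classes did not overlap. The log2 ratio of IR to sham was 1.72 (1.51 to 1.94) in neutrophil-like cells and 2.76 (2.41 to 3.14) in monocyte-like cells. Among neutrophil-like clusters of IR, Osm was at 1285 CPM in cluster 3 and 898 CPM in cluster 6, a log2 difference of 0.52 (0.46 to 0.57). The sham neutrophil-like clusters were lower, at 486 CPM in cluster 16 and 169.6 CPM in cluster 6. Within cluster 6, which both libraries share, Osm was thus still higher in IR.

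Other myeloid classes carried less Osm. Resident-macrophage-like cells held 39.5 CPM in sham and 189 CPM in IR (log2 ratio 2.25, 2.13 to 2.38). Nonclassical-monocyte-like cells held 74.2 and 339 CPM and dendritic-cell-like cells 31.2 and 228 CPM. Their levels in IR lay below those of neutrophil-like and monocyte-like cells, with intervals that did not overlap theirs. Across the library, Osm UMIs numbered 1594 in sham, of which 43.9% lay in resident-macrophage-like cells, 16.1% in nonclassical-monocyte-like cells and 11.4% in neutrophil-like cells. In IR they numbered 33241, of which 45.5% lay in monocyte-like, 42.5% in neutrophil-like and 6.07% in resident-macrophage-like cells. The main holders of Osm thus differed between the libraries, along with the numbers of cells in these classes.

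Fibroblast-like cells, taken to lack Osm, served as the reference for its background. They held 1.20 CPM in sham and 30.5 CPM in IR. For comparison, and not as a background, B-cell-like cells held 3.53 and 39.0 CPM and T-cell-like cells 4.14 and 30.1 CPM. In the IR B-cell-like class, 59 of the 111 Osm UMIs lay in 1 barcode. IR mural-like cells held 53.9 CPM (41.9 to 68.2), an interval above that of IR T-cell-like cells (22.2 to 39.7). It overlapped that of IR B-cell-like cells (32.1 to 47.0). The interval of IR fibroblast-like cells (28.4 to 32.8) overlapped those of B-cell-like and T-cell-like cells. Endothelial-like cells of IR held 134 CPM, of which 53 of 162 UMIs lay in 1 barcode. The summed level of the 8 neutrophil markers in endothelial-like cells was 533 CPM in sham and 6439 CPM in IR, and in fibroblast-like cells 249.9 and 2018 CPM, none of the 8 being absent. The part of these markers' source in the Osm values of nonmyeloid classes was not tested.

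Shares of cells give the same order at equal depth. After each cell was thinned to 1000 UMIs, an Osm UMI was found in 27.2% (21.6 to 33.4) of sham and 53.2% (51.1 to 55.2) of IR neutrophil-like cells. In monocyte-like cells the shares were 17.4% (7.82 to 31.4) and 47.9% (45.1 to 50.8). In fibroblast-like cells, the reference for Osm, they were 0.0871% and 2.65%. Without thinning, 37.8% and 80.3% of neutrophil-like cells had an Osm UMI, at median depths of 1632 and 3984 UMIs, against 0.400% and 15.5% of fibroblast-like cells at 5208 and 13690 UMIs. The shares in neutrophil-like and monocyte-like cells lay well above the reference in both libraries.

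**Figure D1:**
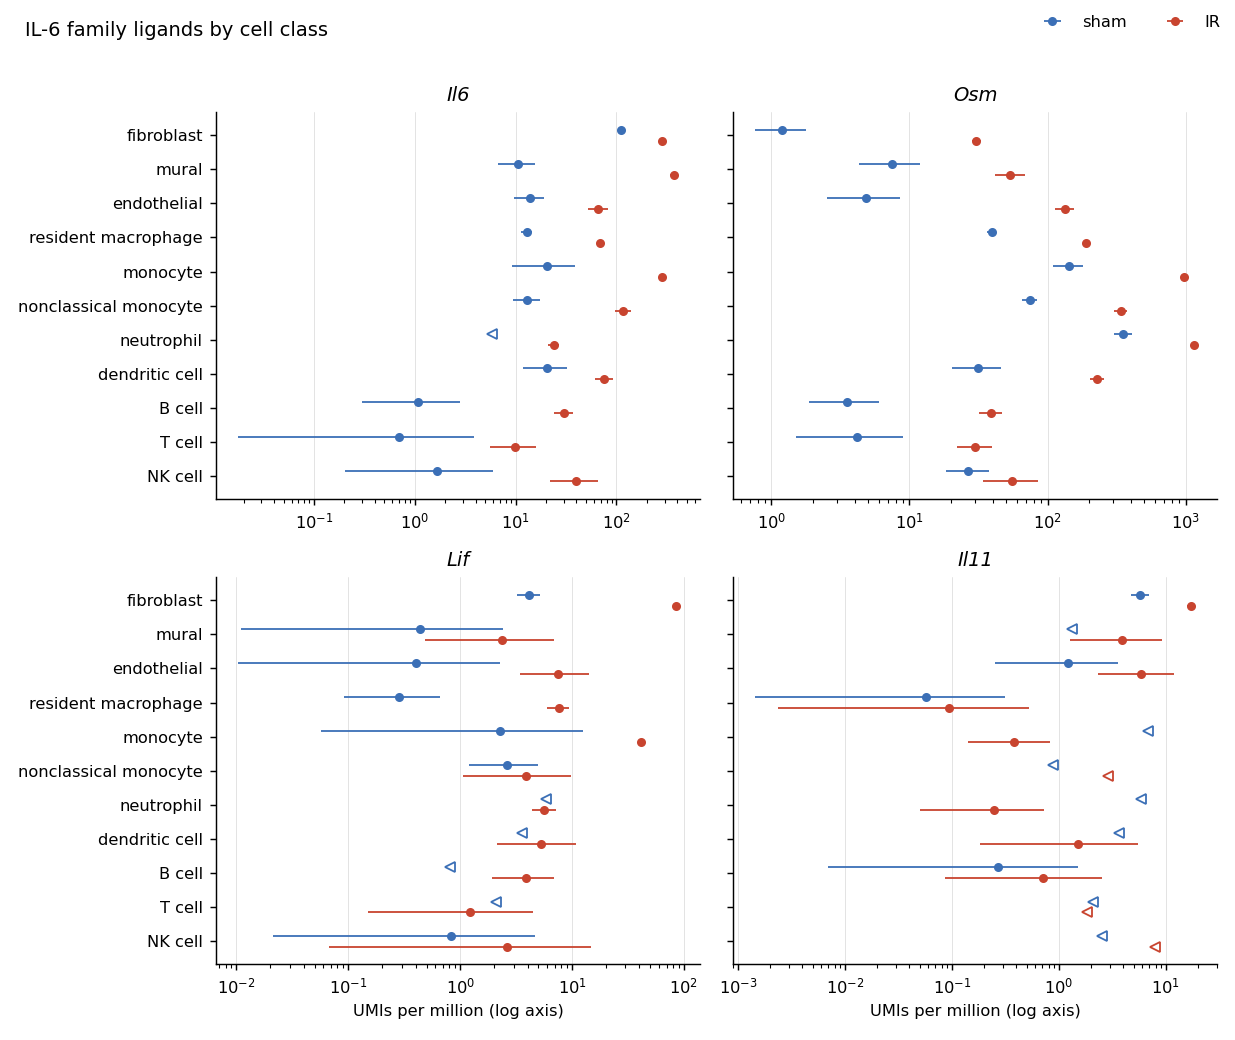
Levels of the ligand genes in CPM (log axis) in the 11 cell classes of sham (blue) and IR (red), with exact 95% Poisson intervals. Open triangles mark classes with 0 UMIs, placed at the level that 3 UMIs would give. Osm was highest in neutrophil-like and monocyte-like cells, Lif and Il11 in fibroblast-like cells of IR, and Il6 was spread over fibroblast-like, mural-like and monocyte-like cells of IR.

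Il6 had a different set of holders, mainly fibroblast-like cells in sham and fibroblast-like, monocyte-like and mural-like cells in IR. Sham fibroblast-like cells held 111 CPM (106 to 116), the highest level of the 11 classes of that library, and IR fibroblast-like cells 284 CPM (278 to 291). Mural-like cells, the pericytes and smooth muscle cells around vessels, held 10.5 CPM (6.71 to 15.6) in sham and 376 CPM (343 to 411) in IR. Monocyte-like cells held 20.3 CPM (9.29 to 38.6), from 9 UMIs, in sham and 282 CPM (274 to 290) in IR. With the classes as clustered, the level in IR mural-like cells was the highest of that library. Those of fibroblast-like and monocyte-like cells, which followed, could not be told apart by their intervals. With the study's upper limit of 2500 genes per cell the order reversed, at 427 CPM in mural-like and 823 CPM in fibroblast-like cells. Under the other alternatives mural-like cells stayed above fibroblast-like cells, though as a mean over cells only at 314 against 297 CPM. Of the Il6 UMIs of IR mural-like cells, 87.9% lay in 21 cells. The log2 ratio of IR to sham was 5.16 (4.57 to 5.82) in mural-like, 3.79 (2.87 to 4.93) in monocyte-like and 1.36 (1.29 to 1.43) in fibroblast-like cells.

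The Il6 value of IR fibroblast-like cells rested on cluster 7. In IR, cluster 7 held 377 CPM and cluster 11 held 58.7 CPM, a log2 difference of 2.68 (2.54 to 2.83), whereas cluster 0 held 111 CPM in sham and 129 CPM in its 68 IR cells. When cells were instead assigned by their own marker UMIs, the fibroblast-like log2 ratio turned to -0.58, with 75.2 CPM in IR. Under that assignment only 14.6% of cluster 7 was called fibroblast-like, against 48.9% of cluster 11 and 54.0% of sham cluster 0. The cells of cluster 7 so called held 106 CPM of Il6, and those not called 420.0 CPM. The direction in fibroblast-like cells therefore depends on whether the Cxcl5-led cluster is counted among them. In mural-like cells the same assignment gave a log2 ratio of 5.35. In monocyte-like cells the ratio rests on 56 sham cells. With a mitochondrial limit of 10% the cells were clustered anew and the sham class so named held 160 cells. Its Il6 level was 152 CPM and the log2 ratio 0.90.

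Both mural-like clusters carried Il6 in IR. The cluster led by pericyte genes (Vtn, Kcnj8) held 3.54 CPM in sham and 409.5 CPM in IR. The cluster led by smooth muscle genes (Tagln, Acta2) held 17.2 and 353 CPM. Their IR levels differed by a log2 of 0.21 (-0.05 to 0.48), an interval that includes no difference. B-cell-like cells served as the reference for Il6, where the levels were 1.09 and 29.9 CPM, with 58 of 85 IR UMIs in 1 barcode, and T-cell-like cells held 0.690 and 9.82 CPM. The summed level of the 7 fibroblast markers in mural-like cells was 975 CPM in sham and 691 CPM in IR. That of the 7 markers of monocytes and recruited macrophages was 853 and 1299 CPM and that of the 8 neutrophil markers 673 and 2968 CPM. The part of other cells' RNA in the Il6 values of mural-like cells was not tested.

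Lower Il6 levels were seen in other cells of IR. Resident-macrophage-like cells held 12.9 and 68.8 CPM, nonclassical-monocyte-like cells 13.1 and 117 CPM and endothelial-like cells 13.8 and 66.1 CPM. Neutrophil-like cells had 0 UMIs of Il6 in sham and 23.8 CPM (21.1 to 26.7) in IR. With 3 UMIs as the floor of the sham class, this is at least 4.09-fold higher with the classes as clustered, a log2 value of 2.03. That value was 0.61 with the limit of 2500 genes and 0.68 with classes from own marker UMIs. The IR level of neutrophil-like cells was not above the 29.9 CPM of B-cell-like cells, where 58 of 85 UMIs lay in 1 barcode. It was above that of T-cell-like cells, at 9.82 CPM (5.61 to 15.9). Among IR resident-macrophage-like cells, cluster 8 (led by Hmox1 and Gdf15) held 100.0 CPM and cluster 1 (led by Lyve1 and Cd163) 16.5 CPM. Cluster 1 was at 15.04 CPM in sham, so the Il6 of this class in IR lay in cluster 8.

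Il6 UMIs were concentrated in few cells. In IR fibroblast-like cells the 10% of cells with the most Il6 (172 cells) held 86.2% of its UMIs, and a single cell held 291. In sham fibroblast-like cells the corresponding 350 cells held 73.6% and the highest cell 24 UMIs. At 1000 UMIs per cell, 8.01% (7.13 to 8.97) of sham and 10.2% (8.84 to 11.8) of IR fibroblast-like cells had an Il6 UMI, intervals that overlap. In mural-like cells these shares were 0.394% (0.0813 to 1.15) and 11.8% (7.45 to 17.5), and in monocyte-like cells 2.17% (0.0550 to 11.5) and 17.7% (15.6 to 19.9). In B-cell-like cells no cell of 1123 had an Il6 UMI in sham, which allows up to 0.267%, and 1.11% did in IR, at median depths of 2138 and 3337 UMIs. Unthinned shares were 22.9% and 33.7% in fibroblast-like cells and 0.263% and 3.73% in B-cell-like cells. In mural-like cells 11 of 837 sham and 53 of 204 IR cells had an Il6 UMI before thinning. The fibroblast-like classes of sham and IR thus differed in Il6 level more than in the share of cells with a UMI.

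Of the 3003 Il6 UMIs in sham, 71.0% lay in fibroblast-like cells, 16.7% in unnamed clusters and 7.59% in resident-macrophage-like cells. Of the 13658 in IR, 52.4% lay in fibroblast-like, 32.4% in monocyte-like, 5.39% in resident-macrophage-like and 3.52% in mural-like cells. With the classes as clustered, mural-like cells thus had the highest Il6 level per UMI but a small part of the total, being 2.47% of the cells.

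**Figure D2:**
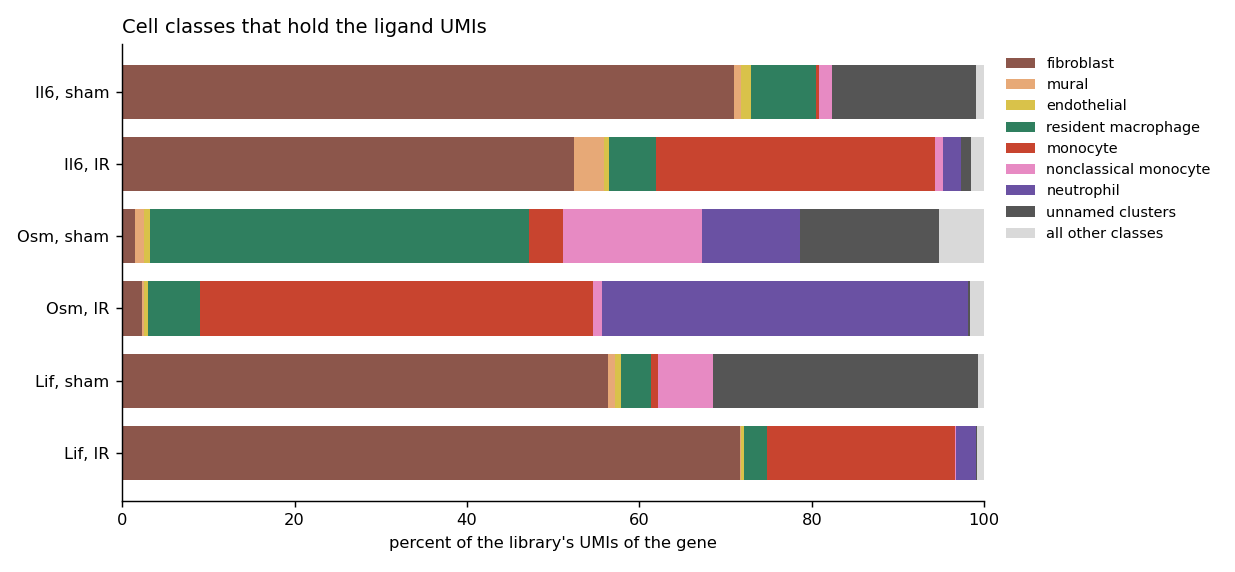
Share of each library's UMIs of Il6, Osm and Lif (percent, 1 bar per gene and library) held by the main cell classes. In IR, Osm lay mostly in monocyte-like (45.5%) and neutrophil-like cells (42.5%), while 52.4% of Il6 and 71.7% of Lif lay in fibroblast-like cells.

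Lif, the ligand of LIFR, was low in sham and was found mainly in fibroblast-like and monocyte-like cells of IR. Fibroblast-like cells held 4.11 CPM (3.25 to 5.12) in sham and 85.3 CPM (81.7 to 89.0) in IR, a log2 ratio of 4.38 (4.05 to 4.72). Monocyte-like cells had 1 Lif UMI in sham and 41.6 CPM (38.5 to 44.9) in IR, a ratio whose log2 interval of 1.72 to 9.51 is wide. In all other classes Lif was at most 7.58 CPM in IR, and in B-cell-like cells it was 3.87 CPM. Of the 2998 Lif UMIs in IR, 71.7% lay in fibroblast-like and 21.8% in monocyte-like cells. Sham held 140 Lif UMIs in all.

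Within IR fibroblast-like cells, Lif lay mainly in cluster 7. That cluster held 2128 of the 2149 Lif UMIs of the class, at 120.2 CPM, and cluster 11 held 1.74 CPM from 12 UMIs, a log2 difference of 6.11 (5.30 to 7.06). Il6 differed between these clusters in the same direction. With classes from own marker UMIs, which leave out most of cluster 7, the Lif log2 ratio in fibroblast-like cells was 1.85.

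Il11, whose product acts on stromal cells through Il11ra1, was found mainly in fibroblast-like cells. It had 120 UMIs in sham, of which 91.7% lay in fibroblast-like cells, and 460 in IR, of which 93.9% did. Fibroblast-like cells held 5.72 CPM (4.70 to 6.89) in sham and 17.2 CPM (15.6 to 18.9) in IR, a log2 ratio of 1.58 (1.28 to 1.90), which turned to -0.84 with classes from own marker UMIs. Of the 110 sham UMIs, 63 lay in the 3481 cells of cluster 0 and 37 in a single cell, and of the 432 IR UMIs 52 lay in a single cell, so the sham level and the ratio rest on few cells. In IR, cluster 7 held 23.2 CPM and cluster 11 held 1.89 CPM. The remaining 10 classes had 0 to 7 UMIs of Il11 in either library, so their ratios are not interpreted.

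Among the receptors, Osmr marked nonleukocyte cells in both libraries. Mural-like cells held 52.4 CPM (43.4 to 62.6) in sham and 266 CPM (239 to 296) in IR. Fibroblast-like cells held 61.3 CPM (57.8 to 64.9) and 162 CPM (157 to 167), and endothelial-like cells 78.1 CPM (67.5 to 89.9) and 149 CPM (128 to 172). The log2 ratios were 2.35 (2.04 to 2.66) in mural-like, 1.41 in fibroblast-like and 0.93 (0.63 to 1.23) in endothelial-like cells. In sham, endothelial-like cells were highest, whereas in IR mural-like cells were highest and the levels of the other two could not be told apart. The 8 leukocyte classes held at most 3.19 CPM of Osmr in sham and 6.33 CPM in IR, the latter in B-cell-like cells. Cells with Osm transcript and cells with Osmr transcript were thus largely separate classes.

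The share of cells with an Osmr UMI was also compared. At 1000 UMIs per cell, an Osmr UMI was present in 5.87% (5.10 to 6.70) of sham and 15.7% (14.0 to 17.5) of IR fibroblast-like cells. In mural-like cells the shares were 5.38% (3.89 to 7.23) and 28.1% (21.6 to 35.3), and in endothelial-like cells 7.16% (4.81 to 10.2) and 10.8% (6.01 to 17.4), where the intervals overlap. The reference, B-cell-like cells, had 0.178% and 0.139%. Unthinned, 25.2% of sham and 79.9% of IR fibroblast-like cells had an Osmr UMI, against 0.438% and 1.07% of B-cell-like cells. Among IR fibroblast-like cells Osmr was at 171 CPM in cluster 7 and 147 CPM in cluster 11, a log2 difference of 0.21 (0.11 to 0.32).

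Lifr, the partner chain for LIF, was found in stromal cells and in several myeloid classes. In sham it was at 90.3 CPM (85.9 to 94.8) in resident-macrophage-like, 71.2 CPM (61.1 to 82.6) in endothelial-like, 42.8 CPM (34.7 to 52.1) in mural-like and 35.5 CPM (32.8 to 38.2) in fibroblast-like cells. In IR, resident-macrophage-like cells held 177 CPM (169 to 185), that is, 0.97 (0.87 to 1.07) higher on the log2 scale. Dendritic-cell-like cells held 34.8 and 62.8 CPM, with a log2 ratio of 0.85 (0.23 to 1.51). Nonclassical-monocyte-like cells held 21.5 and 47.2 CPM, with a log2 ratio of 1.14 (0.59 to 1.68), which was 0.81 with a 10% mitochondrial limit and 0.85 at a resolution of 1.6, and monocyte-like cells 22.6 and 32.5 CPM. The ratios were near 0 in the 3 nonleukocyte classes, at 0.05 (-0.09 to 0.20) in fibroblast-like, 0.27 (-0.20 to 0.73) in mural-like and -0.26 (-0.68 to 0.14) in endothelial-like cells. Neutrophil-like, B-cell-like, T-cell-like and NK-cell-like cells held at most 7.74 CPM in either library. Of the Lifr UMIs, 54.9% in sham and 50.6% in IR lay in resident-macrophage-like cells.

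The Lifr of resident-macrophage-like cells lay mainly in the Lyve1-led cluster. That cluster held 109.6 CPM in sham and 349.9 CPM in IR. In IR the Hmox1-led cluster held 91.5 CPM, a log2 difference of 1.94 (1.79 to 2.08) from the Lyve1-led cluster, and in sham it held 38.1 CPM. Cluster 4, seen almost solely in sham, held 78.1 CPM. The share of resident-macrophage-like cells with a Lifr UMI at 1000 UMIs was 8.54% (7.61 to 9.55) in sham and 17.2% (14.9 to 19.6) in IR, against 0.356% and 0.696% in B-cell-like cells. Unthinned shares were 34.2% and 60.0% in resident-macrophage-like cells, at median depths of 4744 and 9522 UMIs, against 1.14% and 2.40% in B-cell-like cells. In fibroblast-like cells of IR, Lifr was at 96.7 CPM in cluster 11 and 13.9 CPM in cluster 7, the reverse of Lif.

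The balance of both receptor genes was read as the share of Osmr among Osmr and Lifr UMIs of a class. It was 63.4% (61.1 to 65.5) in sham and 81.5% (80.4 to 82.6) in IR fibroblast-like cells. In mural-like cells it was 55.0% (48.2 to 61.8) and 83.8% (79.8 to 87.2), and in endothelial-like cells 52.3% (47.1 to 57.5) and 71.4% (65.4 to 76.9). In resident-macrophage-like cells it was 0.437% and 2.27%. In the 3 nonleukocyte classes the intervals of sham and IR did not overlap.

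Il6st, which encodes gp130, was present in most classes and was highest in nonleukocytes. Fibroblast-like cells held 137 CPM (132 to 143) in sham and 195 CPM (189 to 200) in IR. Endothelial-like cells held 88.2 and 155 CPM and mural-like cells 63.3 and 102 CPM. The log2 ratios in these classes were 0.50 to 0.82. Resident-macrophage-like cells held 17.2 and 32.9 CPM, monocyte-like cells 15.8 CPM (from 7 UMIs) and 51.8 CPM, and T-cell-like cells 43.4 and 63.2 CPM. Neutrophil-like cells had 1 UMI in sham and 7.21 CPM in IR, the lowest level of Il6st in that library beside the 7.92 CPM (3 UMIs) of NK-cell-like cells.

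Il6ra, the IL-6 binding chain, had a different distribution, with its highest levels in myeloid cells. Nonclassical-monocyte-like cells held 180.4 CPM (167 to 195) in sham and 181 CPM (156 to 209) in IR. Monocyte-like cells held 133 and 111 CPM, resident-macrophage-like cells 102 and 124 CPM and neutrophil-like cells 94.9 and 120.3 CPM. T-cell-like cells held 69.0 CPM in sham and 99.99 CPM (85.2 to 117) in IR, which overlapped the interval of IR monocyte-like cells (106 to 116). Fibroblast-like cells held 35.6 and 52.7 CPM, and mural-like cells, the reference, 10.0 and 13.3 CPM. No class differed by 2-fold between the libraries, with log2 ratios from -0.44 in endothelial-like to 0.57 in fibroblast-like cells. In IR fibroblast-like cells Il6ra was at 103 CPM in cluster 11 and 32.1 CPM in cluster 7.

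The share of Il6ra among Il6ra and Il6st UMIs was high in myeloid and low in nonleukocyte classes. It was 98.0% (89.4 to 99.9) in sham and 94.3% (93.1 to 95.4) in IR neutrophil-like cells and 85.5% and 79.1% in resident-macrophage-like cells. It was 20.6% and 21.3% in fibroblast-like cells and 13.7% and 11.6% in mural-like cells. T-cell-like cells lay between these groups, at 61.3% in either library. Mural-like cells, which as clustered had the highest Il6 level in IR, thus had little Il6ra relative to Il6st. In monocyte-like cells the share was 89.4% (79.4 to 95.6) in sham and 68.2% (66.3 to 70.0) in IR.

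**Figure D3:**
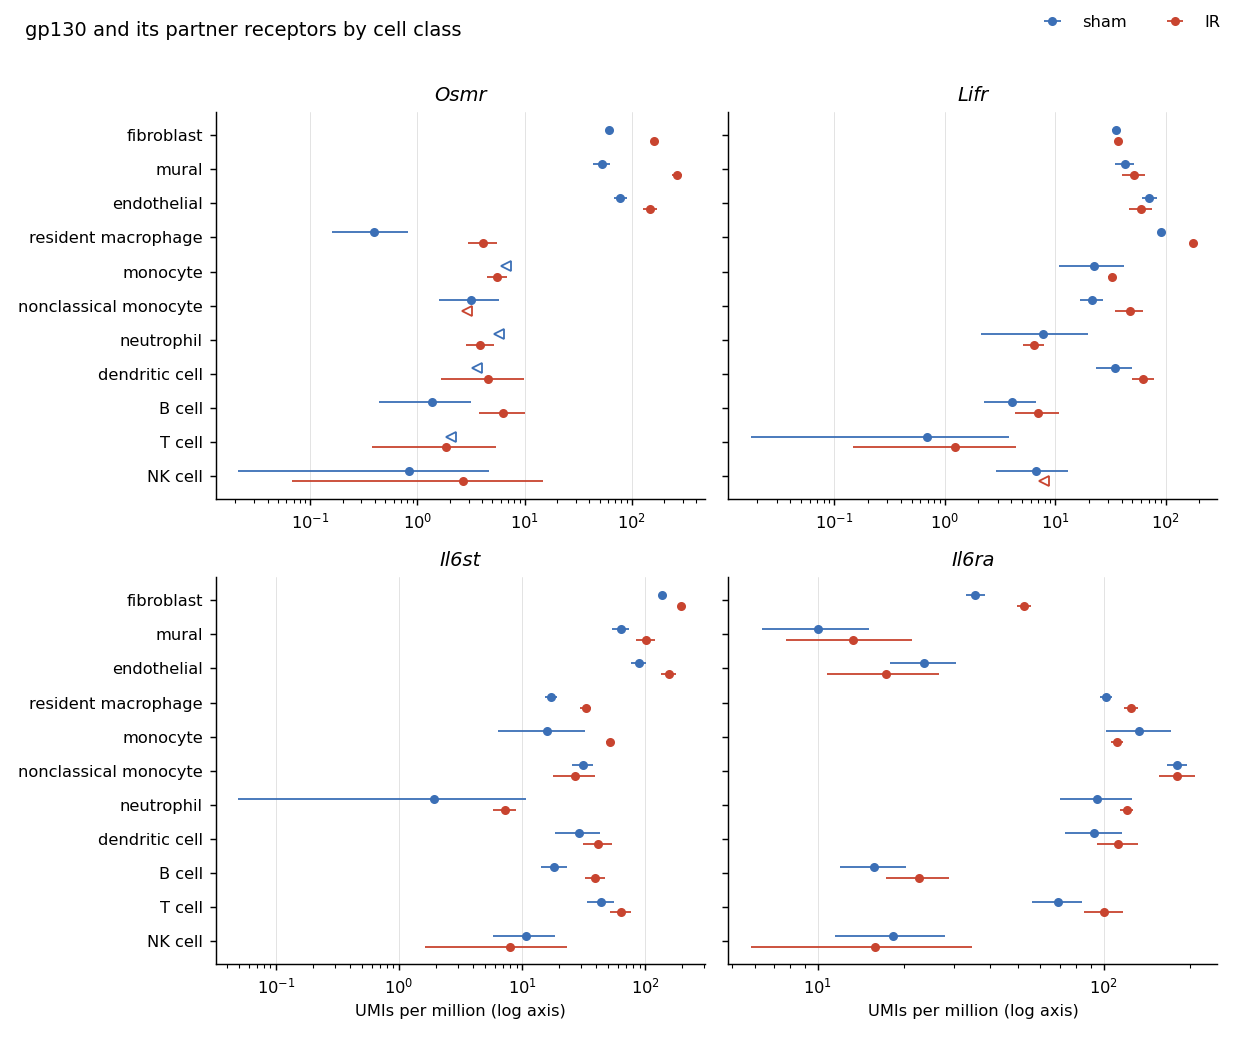
Levels of the receptor genes in CPM (log axis) in the 11 cell classes of sham (blue) and IR (red), with exact 95% Poisson intervals and open triangles for 0 UMIs at the level of 3 UMIs. Osmr and Il6st were highest in fibroblast-like, mural-like and endothelial-like cells, Il6ra in myeloid cells, and Lifr in resident-macrophage-like cells.

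Socs3, the feedback inhibitor of gp130 signaling, differed in direction between classes. In fibroblast-like cells it was at 862 CPM (849 to 876) in sham and 319 CPM (312 to 326) in IR, a log2 ratio of -1.44 (-1.47 to -1.40). In resident-macrophage-like cells it was at 846 CPM (832 to 859) and 525 CPM (511 to 539), a log2 ratio of -0.69 (-0.73 to -0.64). In the other 9 classes it was higher in IR. The largest IR level was 1533 CPM (1458 to 1610.0) in nonclassical-monocyte-like cells. Monocyte-like cells held 1284 CPM (1266 to 1302) and neutrophil-like cells 1248 CPM (1228 to 1268) in IR. The sham levels of these 3 classes were 268, 451 and 228 CPM. Nonclassical-monocyte-like cells held Ly6c2 at 5393 CPM in sham and 25.03 CPM in IR, so the values of that class compare cells unlike in this marker. T-cell-like cells held 69.6 and 434 CPM (log2 ratio 2.64, 2.34 to 2.96).

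The classes with the most Socs3 thus differed between the libraries, fibroblast-like and resident-macrophage-like cells in sham and nonclassical-monocyte-like, monocyte-like and neutrophil-like cells in IR. In IR fibroblast-like cells, cluster 7 held 231 CPM and cluster 11 held 521 CPM, both below sham cluster 0 at 865 CPM, and the 68 IR cells of cluster 0 held 576 CPM. Within the Lyve1-led macrophage cluster the level was 1215 CPM in sham and 479 CPM in IR. At 1000 UMIs, 47.9% (46.2 to 49.5) of sham and 22.4% (20.4 to 24.4) of IR fibroblast-like cells had a Socs3 UMI, and unthinned shares were 79.8% and 71.6%. In neutrophil-like cells the shares were 19.1% (14.3 to 24.8) and 58.9% (56.9 to 60.9), and 30.5% and 85.8% unthinned. Junb, an early-response gene that also moves with tissue dissociation, was at 4654 CPM in sham and 2145 CPM in IR fibroblast-like cells. The part of dissociation in the Socs3 values was not tested.

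Stat3, the transcription factor itself, was expressed in all 11 classes, from 78.6 to 249 CPM in sham and from 158 to 374 CPM in IR. Its level was higher in IR in 10 of the 11. The log2 ratio was 1.495 (1.30 to 1.69) in B-cell-like, 1.41 (1.07 to 1.74) in NK-cell-like, 1.37 (1.06 to 1.69) in T-cell-like and 1.33 (1.11 to 1.56) in mural-like cells. Fibroblast-like cells held 116 CPM (111 to 120) in sham and 231 CPM (225 to 237) in IR (log2 ratio 0.998, 0.93 to 1.07). In neutrophil-like cells the ratio was -0.10 (-0.37 to 0.18). Neutrophil-like cells were thus the exception among the 11 classes.

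**Figure D4:**
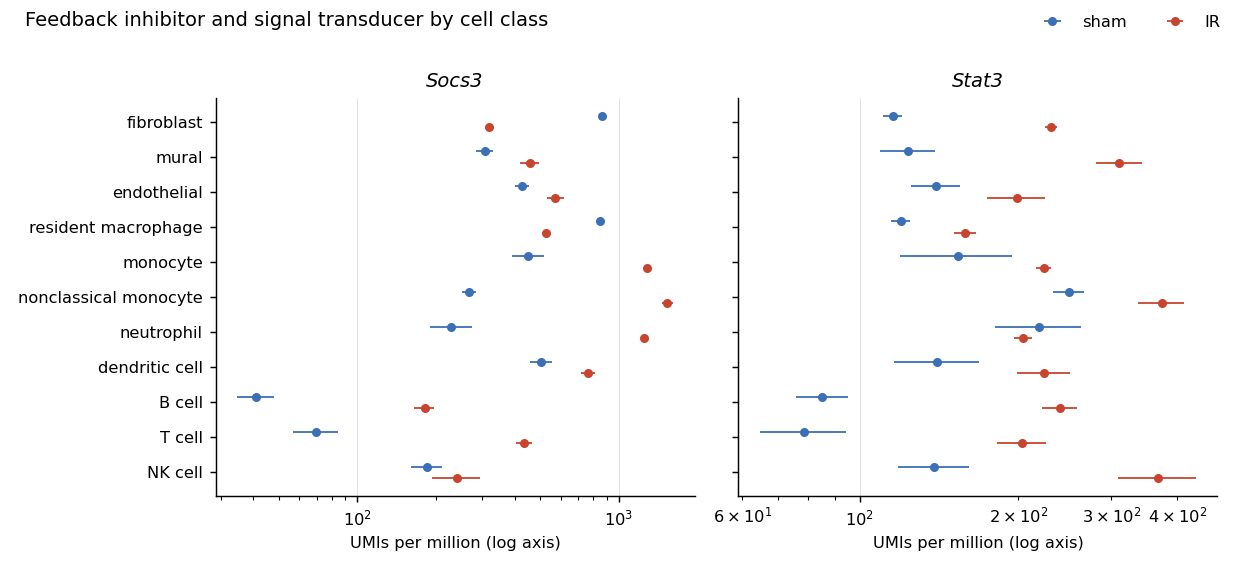
Levels of Socs3 and Stat3 in CPM (log axis) in the 11 cell classes of sham (blue) and IR (red), with exact 95% Poisson intervals. Socs3 was lower in IR in fibroblast-like and resident-macrophage-like cells and higher in the other 9 classes. In NK-cell-like cells 43 of the 91 IR Socs3 UMIs lay in 1 barcode. Stat3 was higher in IR in all classes but neutrophil-like cells.

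The members were set beside all genes in 6 classes, counting genes with a mean of at least 20 CPM that differed at least 2-fold. A member can reach this mean through the library where it is high, so the counts describe the members and carry no test. In fibroblast-like cells 8 of the 10 members reached it, of which Il6, Lif and Osmr were higher in IR and Socs3 was lower, where 10.9% of 5894 genes were higher and 9.81% lower. In mural-like cells 7 reached it and Il6, Osm, Osmr and Stat3 were higher, against 6.19% of genes higher and 6.33% lower. In endothelial-like cells 8 reached it and Il6 and Osm were higher, against 6.17% higher and 6.98% lower. In resident-macrophage-like cells 7 reached it and again Il6 and Osm were higher, against 8.74% higher and 5.07% lower. In monocyte-like cells 8 reached it and Il6, Osm, Lif, Il6st and Socs3 were higher, against 12.1% higher and 12.3% lower. The sham class there had 56 cells, with 9 UMIs of Il6, 1 of Lif and 7 of Il6st. With a 10% mitochondrial limit the log2 ratios of Il6 and Il6st were 0.90 and 0.98, under 2-fold. In neutrophil-like cells 4 reached it and Osm and Socs3 were higher, against 12.8% higher and 15.8% lower. No member was 2-fold lower in the other 5 classes. Osm was counted as higher in mural-like and endothelial-like cells, where the part of other cells' RNA in its values was not tested. In IR endothelial-like cells, 53 of 162 Osm UMIs lay in 1 barcode. The median log2 ratio over all counted genes lay between -0.18 and 0.14 in the 6 classes.

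**Figure D5:**
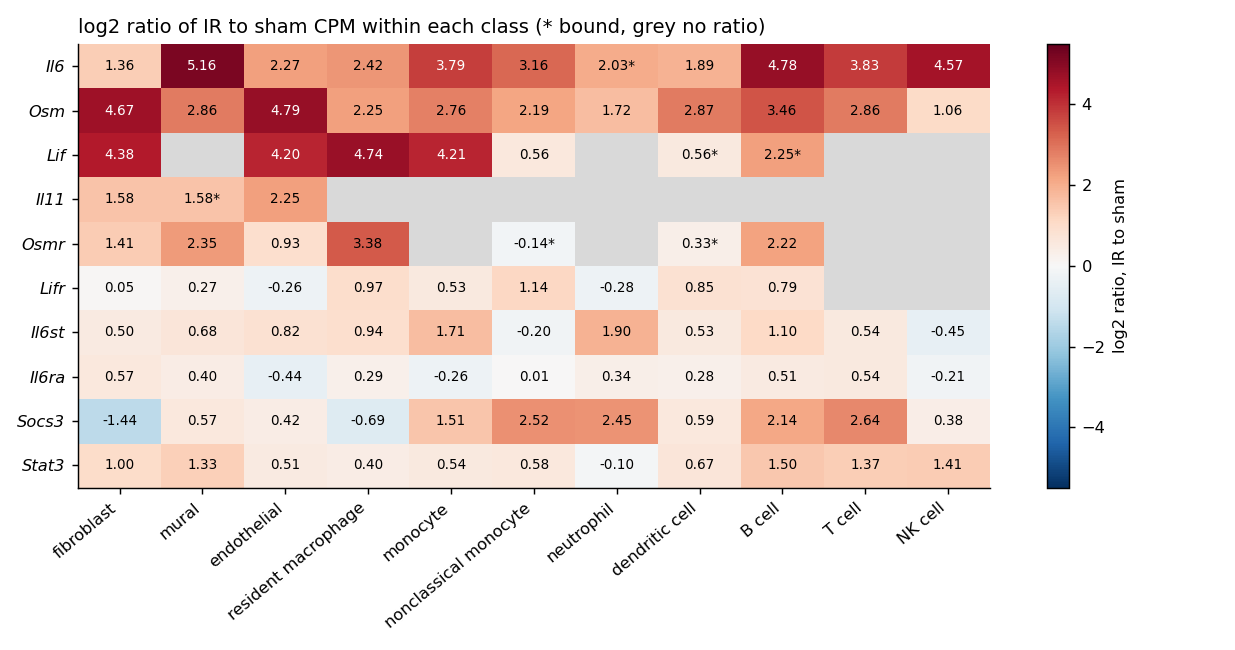
Log2 ratio of IR to sham CPM for the 10 members (rows) in the 11 cell classes (columns), red for higher and blue for lower in IR. Stars mark bounds from a count of 0 set to 3 UMIs, and grey cells have no ratio because both counts were at most 3 UMIs or the bound was void. Every ratio of a ligand gene shown is above 0 with the classes as clustered, though the interval of Lif in nonclassical-monocyte-like cells includes 0. With classes from own marker UMIs, Il6 and Il11 in fibroblast-like, Il11 in endothelial-like and Lif in B-cell-like cells turn below 0. With the upper limit of 2500 genes, Il6 and Osm in T-cell-like cells do. Socs3 was -1.44 in fibroblast-like and 2.45 in neutrophil-like cells.

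A further 40 genes of the pathway were read from lists, of which 39 were in the matrices. Over all of these lists, 24 genes reached the mean of 20 CPM in fibroblast-like cells, of which 9 were at least 2-fold higher and 3 lower in IR, with a median log2 ratio of 0.41. The corresponding counts were 9 higher and 1 lower of 20 in mural-like (median 0.76), 10 and 2 of 23 in endothelial-like (0.81), 7 and 2 of 21 in resident-macrophage-like (0.48), 9 and 3 of 21 in monocyte-like (0.83) and 9 and 2 of 20 in neutrophil-like cells (0.57). Over all genes, 6.17% to 12.8% were higher and 5.07% to 15.8% lower in these 6 classes. A listed gene can also reach the mean through the library where it is high. The counts of these lists, here and below, therefore carry no test. Of the 8 other ligands at most 1 was counted in a class. Among other ligands, Clcf1, a cytokine of this family, was at 4.51 CPM in sham, from 2 UMIs, and 40.5 CPM in IR monocyte-like cells. The log2 interval of that ratio, 1.31 to 6.21, is wide. Ebi3, a subunit of IL-27, was lower in IR resident-macrophage-like cells (40.7 and 16.6 CPM). Among other receptors, Il11ra1 was the one counted, in 4 classes, and was past 2-fold in none of them, with log2 ratios from -0.97 to -0.23. Il11ra1 was highest in fibroblast-like cells, at 172 CPM in sham and 87.7 CPM in IR, and was at 72.0 and 42.9 CPM in mural-like cells. In IR fibroblast-like cells it was at 69.5 CPM in cluster 7, where Il11 lay, and 136 CPM in cluster 11. Cntfr, the receptor of ciliary neurotrophic factor, was at 20.2 and 13.0 CPM in fibroblast-like cells and at or below 3.12 CPM in the other 5 classes.

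Of the 8 kinases, STATs and sheddases, 5 to 7 were counted in a class, with 1 to 3 higher, 1 to 2 lower and median log2 ratios from -0.37 to 0.555. Of the 6 other inhibitors, 3 to 5 were counted, with 1 to 2 higher, 0 to 1 lower and medians from 0.07 to 2.13. Of the kinases, Jak1 differed by less than 2-fold in each of the 6 classes, for example 170.3 CPM in sham and 250.4 CPM in IR fibroblast-like cells. Jak2 was at least 2-fold higher in 5 of the 6, for example 34.9 and 223 CPM in neutrophil-like cells. Of the other inhibitors, Socs1 was lower in fibroblast-like (108 and 18.4 CPM), endothelial-like (46.5 and 12.4 CPM) and neutrophil-like cells (34.9 and 17.1 CPM). Cish was higher in neutrophil-like (5.81 and 259 CPM), monocyte-like (13.5 and 137 CPM) and endothelial-like cells (23.9 and 71.9 CPM). In sham, 3 UMIs give 5.81 CPM in neutrophil-like and 6.77 CPM in monocyte-like cells, so the sham Cish levels of these classes rest on few UMIs. Adam10 and Adam17, proteases that shed IL-6Rα, were both higher in neutrophil-like cells, Adam10 at 15.5 and 40.6 CPM and Adam17 at 15.5 and 35.3 CPM. Their sham levels also rest on few UMIs.

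Of the 12 STAT3 target genes present, 6 were at least 2-fold higher and 1 lower in IR fibroblast-like cells, with a median log2 ratio of 0.95 against 0.06 over all genes. In mural-like cells 6 of the 11 counted were higher and 0 lower (median 2.02 against -0.02), and in endothelial-like cells 8 of 11 and 0 (1.51 against -0.03). In resident-macrophage-like cells 5 of 11 were higher and 0 lower (0.97 against 0.14), in monocyte-like cells 6 of 10 and 1 (1.06 against -0.10), and in neutrophil-like cells 4 of 10 and 0 (0.57 against -0.18). In fibroblast-like cells, Timp1, an inhibitor of matrix proteases, was at 125 and 2474 CPM and Serpina3n, a protease inhibitor, at 144 and 795 CPM, while Junb was the lower target. Il4ra, the IL-4 receptor chain, was higher in 5 of the 6 classes, for example 25.5 and 169 CPM in endothelial-like cells. Timp1 was also at 1.36 and 146 CPM in B-cell-like cells, and Lcn2, a neutrophil granule gene, at 1.36 and 25.7 CPM. The source of these UMIs was not tested. Beside the target counts, 6.17% to 12.8% of all genes were at least 2-fold higher and 5.07% to 15.8% lower in the 6 classes. The targets have other regulators too, and phosphorylated STAT3 was not measured.

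Genes with the pattern most like that of a member were ranked by Pearson r of log2 CPM with 10 added, over 22 class and library points and 11966 genes. These points share libraries and depth, so r is a description. Osm was most like Ccr1 (r = 0.986), Nlrp3 (0.966) and Clec4e (0.960), which are myeloid inflammatory genes. Osmr was most like Cttn (0.979), Akap2 (0.978) and Yap1 (0.973). Lifr was most like Ctbp2 (0.943), Tnip2 (0.893) and Cmtm3 (0.888). Il6 was most like Itga5 (0.885), Uso1 (0.885) and Copb2 (0.876), Socs3 like Ier3 (0.867), Xbp1 (0.839) and Nfkbiz (0.822), and Il6ra like Vsir (0.831), Rbm47 (0.822) and Zdhhc9 (0.811).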

How the data were processed

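Each condition came as 1 matrix of raw UMI counts, deposited as whole numbers with no normalization. The authors made it with Cell Ranger and the mm10 genome. The matrix headers name version 3.1.0. The members and gene lists were chosen with earlier results of these data known. Barcodes with at least 200 genes and at most 30% mitochondrial UMIs were kept. The study's upper limit of 2500 genes was not applied, because it leaves 9777 sham and 4880 IR barcodes. Counts were scaled to 10000 per cell and logged, and 2000 variable genes, without members and pathway genes, gave 30 principal components and a graph of 30 neighbors for Leiden clustering (resolution 0.8). Clusters were named from 120 markers present, by a score of at least 0.5, at least 3 markers in over 10% of cells and a margin of 0.6, thresholds set after the clusters were seen. Clusters rebuilt this way may differ from the study's. Doublets were not removed in the reported values.

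UMIs were summed per class and library and divided by the class total (CPM), with exact Poisson, conditional binomial or Clopper–Pearson intervals. For bounds, 3 UMIs over the class took the place of 0. Shares were taken after drawing 1000 UMIs per cell, which left out 52 sham and 14 IR fibroblast-like and 14 and 121 neutrophil-like cells, among others. Members were all named, other pathway genes where at least 2-fold different at a mean of 20 CPM or as receptor partners, and the 3 most similar genes for 6 members. The ratio and its interval were tested on simulated counts. Some genes of the pathway lists are counted but not reported here by name. No difference has a replicate check. Python 3.11.15, numpy 2.4.6, scipy 1.17.1, pandas 2.3.3, scikit-learn 1.9.0, leidenalg 0.10.2 and igraph 0.11.9 were used.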

Additional observations from a re-analysis of the deposited data

Results flagged for a closer look

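Socs3 differed in opposite directions between classes, with a log2 ratio of IR to sham of 2.64 in T-cell-like cells and -1.44 in fibroblast-like cells. The difference between these classes was not tested, since each library is a single pool.

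Il6 and Lif were also found in sham clusters that no comparison used, at levels above the upper interval limit of every compared class of that library. Unnamed cluster 25 (52 sham cells, led by Calca, Gata3, Il5 and Il13) held 367 CPM of Il6 (284 to 468), 67.8 CPM of Lif (35.0 to 119) and 497 CPM of Osm, with Il6 UMIs in 9 cells. Unnamed cluster 26 (40 sham cells, led by Alox15, Cd5l and Serpinb2) held 455 CPM of Il6 (402 to 512), 36.4 CPM of Lif (22.8 to 55.1) and 215 CPM of Osm, with Il6 UMIs in 33 cells. In IR these clusters had 8 and 6 cells.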

How the results depend on the processing

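Of the 48 member ratios past 2-fold, 313 of 320 values recomputed under the alternatives kept their direction and 291 stayed past 2-fold. No paired analysis was possible because the matrices do not assign barcodes to the numbered samples, and leaving out a replicate was not possible for the same reason.

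With classes from own marker UMIs, the log2 ratios that turned were Il6 in fibroblast-like cells (-0.58), Il11 in fibroblast-like (-0.84) and endothelial-like cells (-1.66), and Lif (-0.35) and Osmr (-0.57) in B-cell-like cells. The first rests on cells of cluster 7, of which 14.6% were assigned to fibroblast-like cells. With the upper limit of 2500 genes, Il6 (-1.85) and Osm (-1.34) turned in T-cell-like cells. The cause of the other turns was not tested.

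The main log2 ratios moved beyond their counting intervals as follows. With the limit of 2500 genes, Il6 was at 2.94 in fibroblast-like and 6.02 in mural-like cells, Lif at 6.24 in fibroblast-like and Osmr at 2.77 in mural-like cells. With a 10% mitochondrial limit, Il6 was at 1.43 in fibroblast-like and 6.39 in mural-like cells and Osm at 2.18 in monocyte-like cells. With high doublet scores removed, Il6 was at 6.19 in mural-like and Socs3 at -1.52 in fibroblast-like cells. With own marker UMIs, Lif was at 1.85 and Socs3 at -1.07 in fibroblast-like cells, and at a resolution of 1.6 Socs3 was at -1.48. With a total without mitochondrial, ribosomal protein and hemoglobin genes, Socs3 was at -1.39. As a mean over cells, Il6 was at 1.45 and Socs3 at -1.33 in fibroblast-like cells, Osm at 3.16 in monocyte-like and 1.47 in neutrophil-like cells. The causes were not tested.

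The sham monocyte-like class had 56 cells and fell below 50 with the limit of 2500 genes and with doublets removed, so it has no value there. With a 10% mitochondrial limit and new clusters, the sham class so named held 160 cells, with Il6 at 152 CPM. Without the shallow cluster 20, an alternative chosen after seeing the data, Osm in IR monocyte-like cells was 988 CPM. The 12 counts of genes past 2-fold moved by over 1.5 times with a lower CPM minimum. In fibroblast-like cells, 643 higher and 578 lower genes became 1026 and 1125 with a minimum of 5 CPM, 1836 and 2836 with none, and 355 and 259 with own marker UMIs. Of the other settings, a 10% mitochondrial limit gave 714 higher genes in mural-like cells in place of 389. In endothelial-like cells the limit of 2500 genes gave 614 and own marker UMIs 662 higher genes in place of 383. At 3 UMIs the floor was 6.77 CPM in sham monocyte-like and 7.92 CPM in IR NK-cell-like cells.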
